A study of Mus musculus with 7 samples.

Results

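Zona glomerulosa markers of the mouse adrenal gland are described here as 8 genes, Cyp11b2, Hsd3b6, Agtr1a, Agtr1b, Dab2, Kcnk3, Kcnk9 and Kcnj5, chosen by symbol. Of the 8, 7 had a probe set that carries their symbol alone, 1 probe set each, and they stand among 22180 genes tested. Both probe sets that carry Kcnk3 also carry a second symbol, so this gene is given only from the authors' deposited table. RNA of whole adrenal glands was measured on 1-colour Affymetrix arrays, and the values are RMA log2 values, background-corrected and quantile-normalized by the authors. A difference of 1 on this scale is a doubling.

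There were 4 arrays of KO mice with the genotype sf1:Cre; Ezh2 Fl/Fl and 3 arrays of WT mice, which were littermates. All mice were females aged 2 months on an uncontrolled mixed background, mainly C57BL/6 and SV129. Ezh2 encodes the enzyme of Polycomb repressive complex 2 that methylates histone H3 to silence genes. In sf1:Cre mice, regulatory sequences of Nr5a1, the gene of steroidogenic factor 1, drive Cre recombinase, so that steroid cells of the cortex recombine and chromaffin cells of the medulla do not. The sources used here do not say whether the WT littermates carried the Cre or a floxed allele, nor how many glands went into each array. The comparison asks which transcripts of the gland differ when Ezh2 is deleted in steroidogenic cells.

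The zona glomerulosa is the outermost layer of the adrenal cortex and makes aldosterone, the hormone that retains sodium. Angiotensin II and potassium both act on its cells by depolarising the membrane, which is held at a negative voltage by potassium channels. The depolarisation opens calcium channels, and calcium then raises aldosterone output, acutely through cholesterol delivery and later through transcription of Cyp11b2.

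In KO glands 1 of the 7 measured markers rose, the potassium channel gene Kcnk9, by 0.64 on the log2 scale or 1.56-fold (standard error, SE, 0.10, adjusted p = 0.00966). None of the 7 fell by the same test. A gene is said to have risen or fallen where limma's Benjamini-Hochberg adjusted p over all 22180 genes was under 0.05, which held for 8.69% of all genes, 5.14% higher and 3.55% lower in KO. Without adjustment, 2 of the 7 had a p under 0.05 in limma, Kcnk9 higher and Agtr1b lower in KO, against 22.8% of all genes. The same 2 were the markers whose KO and WT arrays did not overlap, against 20.2% of all genes. The median log2 change was 0.11 over the 7 markers and 0.000358 over all genes, and 5 of the 7 changes were positive. The mean of the 7 markers differed with the opposite sign, by -0.10. It was 8.34 to 8.94 on the KO arrays and 8.63 to 8.90 on the WT arrays, which overlapped.

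The array medians over 41345 probe sets lay between 5.32 and 5.38, and Pearson's r across genes was 0.993 to 0.996 within a group and 0.984 to 0.990 between groups. Of the calls, 59.1% were rises, and this share was 43.1% when each array was centred on the median of the named genes, a setting added after the data were seen. That setting gave 4.53% of genes higher and 5.99% lower in KO, and centring on the medians of all probe sets gave 5.77% higher and 3.3% lower. Ezh2 was at 6.86, 7.04, 7.10 and 7.15 on the KO arrays and at an identical value of 7.08 on all 3 WT arrays. Its log2 change was -0.04 (SE 0.07, adjusted p = 0.816). Such an identical value on all WT arrays, with an SD of 0, was found for 711 of the 22180 genes. The sources used here do not say which exons the Ezh2 probe set covers, so the labels cannot be checked by it. The number of arrays limits the precision of every value below.

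Cyp11b2, aldosterone synthase, carries out the last steps of aldosterone synthesis and defines the zone. It was at 10.83, 11.21, 11.45 and 11.17 on the KO arrays and at 10.78, 10.73 and 11.11 on the WT arrays. The groups overlapped, since KO replicate 1 and WT replicate 3 lay within the range of the other group. The means were 11.16 ± 0.25 in KO (SD, n = 4) and 10.87 ± 0.21 in WT (SD, n = 3). The log2 change was 0.29, with an SE of 0.15, a 95% interval of -0.07 to 0.66 and an adjusted p of 0.321. The interval covers no change and also a rise of 0.66.

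Cyp11b1, the 11-beta-hydroxylase of glucocorticoid synthesis in the zona fasciculata, is the neighbour of Cyp11b2 in the annotation, with 0 annotated genes between them. Its log2 change was -0.05 (SE 0.04, adjusted p = 0.563). These enzymes are close relatives in sequence, and the sources used here do not say whether the probe sets tell their transcripts apart. The within-array difference Cyp11b2 minus Cyp11b1 averaged -1.57 ± 0.30 in KO (SD, n = 4) and -1.91 ± 0.22 in WT (SD, n = 3). The difference between the groups was 0.34 and was not significant (exact permutation test over 35 splits, two-sided, p = 0.171, adjusted p = 0.229 over 3 pairs of related genes).

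Hsd3b6 encodes the 3-beta-hydroxysteroid dehydrogenase isoform of the mouse zona glomerulosa. It was at 6.23, 5.73, 8.32 and 6.32 on the KO arrays and at 8.89, 8.21 and 6.89 on the WT arrays. KO replicate 3 lay with the WT arrays and WT replicate 3 nearer to the other KO arrays, so the groups overlapped. The means were 6.65 ± 1.14 in KO (SD, n = 4) and 7.99 ± 1.02 in WT (SD, n = 3). The log2 change of -1.34 had an SE of 0.70 and a 95% interval of -3.00 to 0.31 (adjusted p = 0.312). It was the widest interval of the 7 markers, and the change was -0.90 without WT replicate 1 and -1.90 without KO replicate 3 or without WT replicate 3.

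Hsd3b1 encodes the more widespread isoform of the cortex. It was at 12.11 ± 0.10 in KO (SD, n = 4) and 12.31 ± 0.03 in WT (SD, n = 3), a log2 change of -0.20 (adjusted p = 0.101, and 0.0459 without KO replicate 1). The within-array difference Hsd3b6 minus Hsd3b1 averaged -5.46 ± 1.20 in KO (SD, n = 4) and -4.32 ± 1.05 in WT (SD, n = 3). The groups differed by -1.15 (exact permutation test, two-sided, p = 0.229, adjusted p = 0.229).

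Agtr1a encodes the main angiotensin II receptor of the mouse, which couples to phospholipase C. It was at 10.20, 10.62, 10.32 and 10.56 on the KO arrays and at 10.18, 10.10 and 10.27 on the WT arrays. Of the KO arrays 3 lay above every WT array, and KO replicate 1 lay among them. The log2 change was 0.24 (SE 0.11, 95% interval -0.01 to 0.50, adjusted p = 0.237).

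Agtr1b encodes the second isoform of that receptor, which rodents carry as a separate gene. It was at 5.89, 6.95, 6.69 and 6.57 on the KO arrays and at 7.17, 7.55 and 7.10 on the WT arrays. For comparison, the median gene was at 5.84 as a mean of 7 arrays. Every KO array lay below every WT array, as for 9.86% of all genes. The means were 6.52 ± 0.45 in KO (SD, n = 4) and 7.27 ± 0.24 in WT (SD, n = 3). The log2 change was -0.75, with an SE of 0.25 and a 95% interval of -1.33 to -0.17. Its p in limma was 0.0182 before and 0.121 after adjustment over all genes, so that it did not pass. In the authors' deposited table, whose test the sources used here do not name, the change of Agtr1b was -0.77 with an adjusted p of 0.0415. That table has an adjusted p under 0.05 for 9.72% of its 28638 genes, 5.57% being higher and 4.16% lower in KO. Over 16 alternative settings the adjusted p of limma was 0.0711 to 0.326, and the change was negative in each.

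The changes of Agtr1a and Agtr1b had opposite signs. The within-array difference Agtr1a minus Agtr1b was 4.31, 3.67, 3.64 and 3.99 on the KO arrays and 3.01, 2.55 and 3.17 on the WT arrays. All KO arrays were above all WT arrays, by 0.99 on average. The exact permutation test gave p = 0.0286, the smallest value that 35 splits allow, and an adjusted p of 0.0857 over the 3 pairs, which is the smallest that 1 pair alone can reach here. A threshold of 0.05 was therefore out of reach for this pair alone, and the adjusted p says nothing either way.

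**Figure D1:**
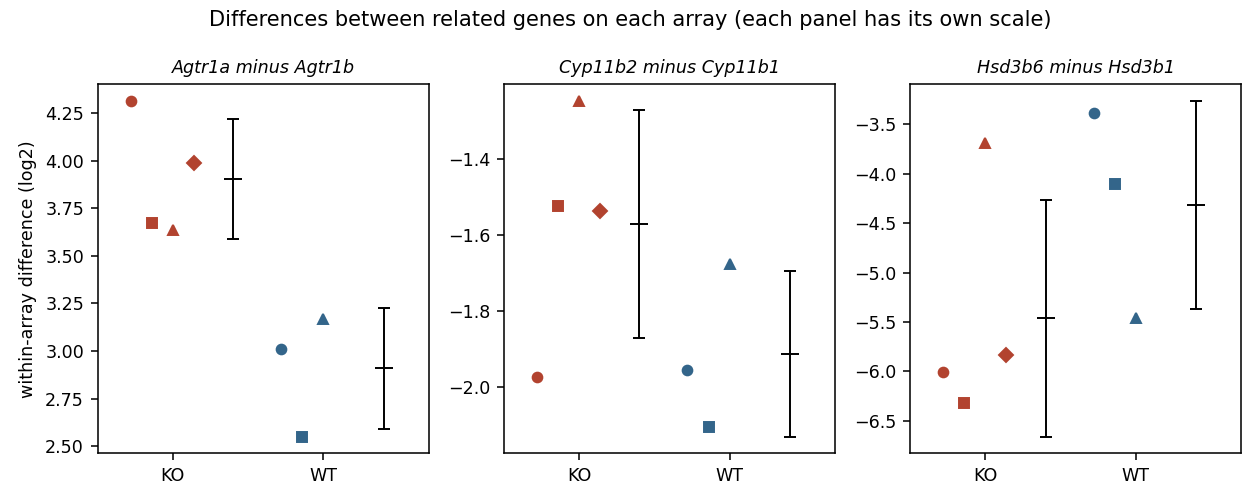
Within-array differences between related genes, in log2 units, with the 4 KO arrays left of the 3 WT arrays; circles, squares, triangles and diamonds mark replicates 1, 2, 3 and 4 and the bar to the right of each group is its mean and SD. For Agtr1a minus Agtr1b the KO arrays lie between 3.64 and 4.31 and the WT arrays between 2.55 and 3.17, while the other pairs overlap.

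The 250 bases before the start site are shown for the 2 markers with the largest negative changes, Agtr1b and Hsd3b6, and for Hsd3b1 as the relative of Hsd3b6, so that the control regions of related genes can be compared. They are RefSeq sequences of build GRCm38.p6, all on the minus strand of chromosome 3, at chr3:20367178-20367427 for Agtr1b, chr3:98814444-98814693 for Hsd3b6 and chr3:98859795-98860044 for Hsd3b1. Capitals mark the letters TATAAA, the only searched motif found in any of them.
Agtr1b: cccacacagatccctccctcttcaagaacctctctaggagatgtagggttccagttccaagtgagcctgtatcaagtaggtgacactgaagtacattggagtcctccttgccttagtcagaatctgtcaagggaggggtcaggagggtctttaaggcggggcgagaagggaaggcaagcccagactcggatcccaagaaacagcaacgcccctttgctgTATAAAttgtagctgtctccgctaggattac
Hsd3b6: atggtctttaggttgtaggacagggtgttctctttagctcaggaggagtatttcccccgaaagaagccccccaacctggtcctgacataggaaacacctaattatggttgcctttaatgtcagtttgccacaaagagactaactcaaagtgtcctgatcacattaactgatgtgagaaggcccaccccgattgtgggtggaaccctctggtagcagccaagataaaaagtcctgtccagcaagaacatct
Hsd3b1: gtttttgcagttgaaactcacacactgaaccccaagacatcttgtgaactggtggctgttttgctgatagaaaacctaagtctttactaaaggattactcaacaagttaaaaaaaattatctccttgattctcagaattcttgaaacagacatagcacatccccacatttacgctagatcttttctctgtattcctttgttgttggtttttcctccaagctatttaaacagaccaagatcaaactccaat

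The search covered both strands for AAGGTCA (the site of steroidogenic factor 1), AAAGGTCA (the site of the NR4A receptors, which contains AAGGTCA), TGACGTCA (the cyclic AMP response element) and TATAAA (the TATA box). Agtr1b holds TATAAA on its own strand, from 31 bases before its start site, and 12.4% of 32851 promoter windows of the same length hold these letters at any position. AAGGTCA is in 4.08% of these windows, AAAGGTCA in 1.34% and TGACGTCA in 1.55%, and these letters were not in the 3 windows shown. In the annotation Hsd3b6 and Hsd3b1 are separated by 1 annotated gene, which is not protein-coding. Promoter sequences were matched for 4 of the 8 markers.

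Kcnk9 encodes TASK3, a 2-pore potassium channel that carries background current and helps hold glomerulosa cells at a negative voltage. It was at 9.92, 10.04, 9.96 and 9.97 on the KO arrays and at 9.46, 9.08 and 9.46 on the WT arrays. Every KO array lay above every WT array, as for 10.3% of all genes, and the KO arrays spread by less than the WT arrays. The means were 9.97 ± 0.05 in KO (SD, n = 4) and 9.33 ± 0.22 in WT (SD, n = 3), with a 95% interval of the change of 0.41 to 0.87. WT replicate 2 was the lowest array, and without it the change was 0.51 (adjusted p = 0.0103). The call held whichever single array was left out (highest adjusted p 0.0344). It was lost with the replicate number as a block (adjusted p = 0.0838), where the change was 0.64. The fit with the block leaves fewer residual degrees of freedom. It called 523 of all genes higher and 286 lower, against 1140 and 788 without the block. The authors' deposited table gave a change of 0.67 with an adjusted p of 0.00307.

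On the same arrays the markers of chromaffin cells were higher in KO. Their list mean was 10.30 to 10.48 on the KO arrays and 9.38 to 9.53 on the WT arrays. Of the list's 13 measured genes 12 rose, against 5.14% of all genes, the catecholamine enzymes Th, Dbh and Pnmt among them. The other was the enkephalin gene Penk, at 8.11 ± 0.41 in KO (SD, n = 4) and 7.61 ± 0.17 in WT (SD, n = 3). TASK channels are also known in chromaffin cells, and the part of these cells in the change of Kcnk9 was not tested. In a whole gland a change in the share of a cell type and a change in RNA per cell cannot be told apart.

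Kcnk3 encodes TASK1, which forms channels with TASK3. In the authors' deposited table its log2 change was -0.06 (adjusted p = 0.737). The sources used here do not say which probe sets that value rests on, and both that carry Kcnk3 also carry a second symbol. The difference between Kcnk9 and Kcnk3 could not be tested, since Kcnk3 has no probe set of its own here.

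Kcnj5 encodes GIRK4, an inwardly rectifying potassium channel whose human counterpart is mutated in aldosterone-producing adenomas. It was at 4.73, 5.11, 4.93 and 5.20 on the KO arrays and at 4.97, 4.86 and 4.83 on the WT arrays. The WT arrays lay within the range of the KO arrays. The log2 change was 0.11 (SE 0.11, 95% interval -0.16 to 0.37, adjusted p = 0.631). Kcnj5 was the 1 of 7 markers that a filter at the level of the median gene (5.84) removed.

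Dab2 encodes an endocytic adaptor protein used as a marker of glomerulosa cells. It was at 10.61, 10.86, 10.87 and 10.99 on the KO arrays and at 10.82, 10.69 and 10.75 on the WT arrays. The WT arrays again lay within the range of the KO arrays. The log2 change was 0.08 (SE 0.09, 95% interval -0.14 to 0.29, adjusted p = 0.670), the smallest of the 7.

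**Figure D2:**
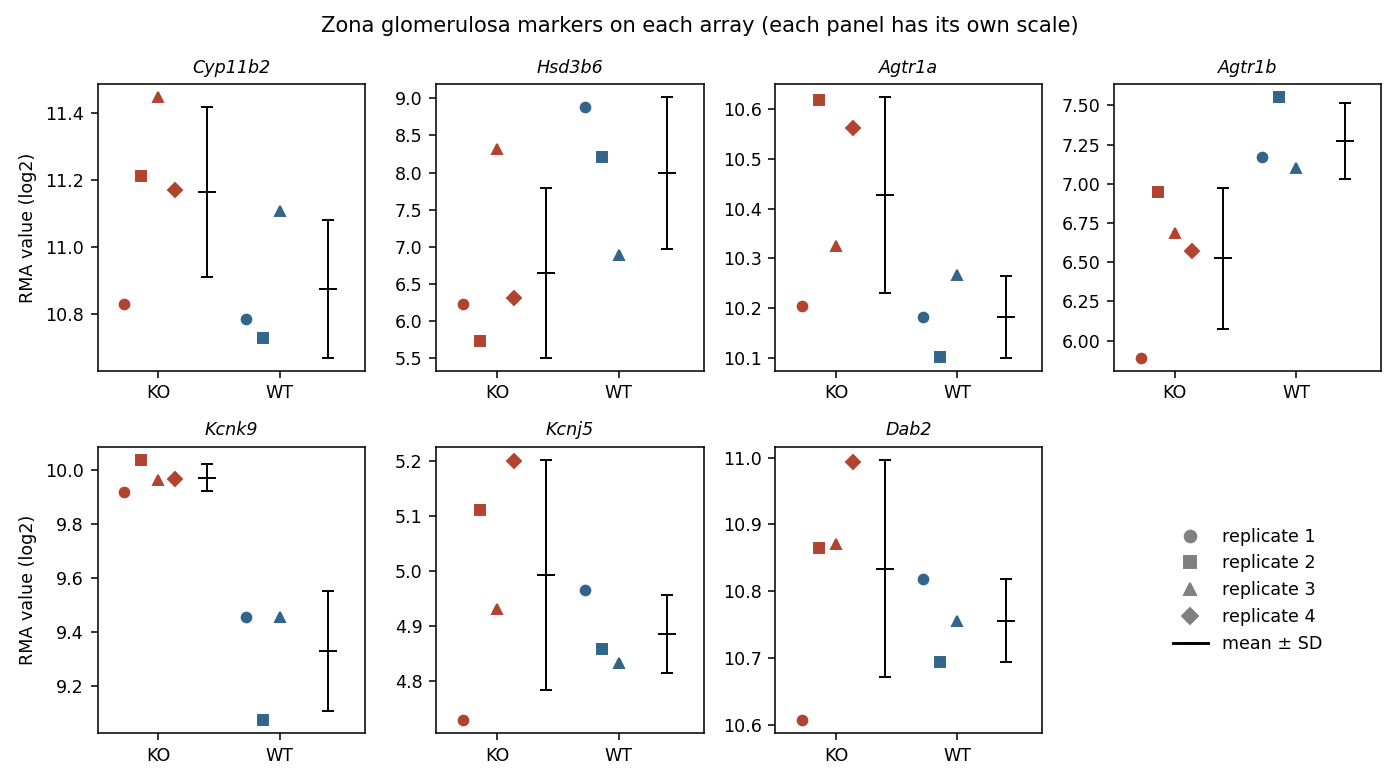
RMA log2 values of the 7 markers with a probe set of their own, with 4 KO arrays left of 3 WT arrays in each panel; circles, squares, triangles and diamonds mark replicates 1, 2, 3 and 4 and the bar beside each group is its mean and SD. The groups do not overlap for Kcnk9, higher in KO, and Agtr1b, lower in KO, and overlap for the other 5.

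**Figure D3:**
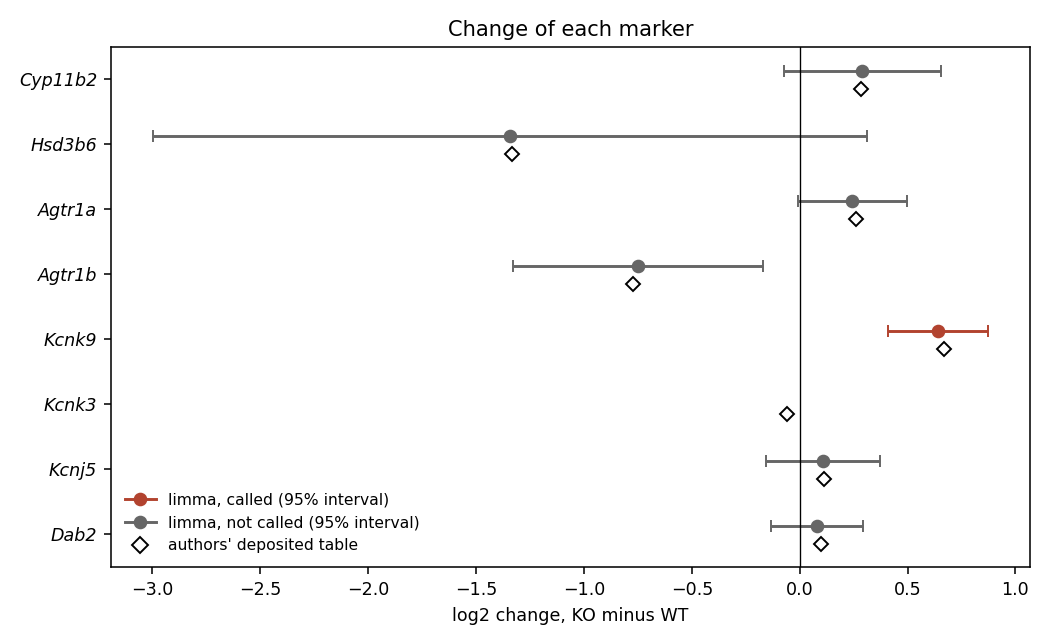
Log2 change, KO minus WT, of each marker, as limma's estimate with its 95% interval (circles) and as the value of the authors' deposited table (open diamonds), which alone gives Kcnk3. The interval of Kcnk9 lies above 0 and that of Agtr1b below it, and Hsd3b6 has the widest interval.

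Among the KO arrays, replicate 1 had the lowest value for 6 of the 7 markers, all but Hsd3b6, whereas it was the lowest KO array for 32.2% of all genes. That share also counts genes for which replicate 1 was only tied for the lowest value, since ties went to the lowest-numbered array. The same array had the lowest adipocyte list mean, 7.16, against 8.49 to 9.09 on the other KO arrays and 8.61 to 9.64 on the WT arrays. Its capsule and stroma list mean was 8.09, against 8.46 to 8.75 on the other KO arrays and 7.69 to 7.76 on the WT arrays. KO replicate 1 also had the highest chromaffin and fasciculata list means of the 7 arrays, 10.48 and 11.45, and the lowest endothelial one, 8.14. Without KO replicate 1 the changes were 0.40 for Cyp11b2 (adjusted p = 0.138), 0.32 for Agtr1a (adjusted p = 0.109), 0.15 for Dab2, 0.20 for Kcnj5 and -0.54 for Agtr1b (adjusted p = 0.105). The median change of the 7 was then 0.20. The part of adhering fat, capsule or other cell types in these values was not tested.

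This list and those below were chosen with earlier results of these data known. Of 13 measured genes of glomerulosa identity and of its Wnt input, 1 rose and 0 fell by limma. Over all genes 5.14% rose and 3.55% fell. An unadjusted p under 0.05 was found for 4 of the 13, against 22.8% of all genes. The list's median change was 0.13. Lgr5, an R-spondin receptor that marks Wnt-responding cells, was at 9.04 ± 0.23 in KO (SD, n = 4) and 8.11 ± 0.05 in WT (SD, n = 3; log2 change 0.93, SE 0.12, adjusted p = 0.00536). Its second, dimmer probe set gave a change of 0.31 (adjusted p = 0.121). Axin2, a target of Wnt signalling, had a change of 0.18 (adjusted p = 0.311), the Wnt-responsive factor Lef1 one of 0.34 (adjusted p = 0.162, and 0.0312 without KO replicate 1) and the ligand Rspo1 one of 0.33 (adjusted p = 0.181). Znrf3, which removes Wnt receptors from the membrane, had a change of -0.18 (adjusted p = 0.109). The marker list of capsule and stroma, which supplies R-spondins, had 6 of 12 genes higher in KO, against 5.14% of all genes. The R-spondin gene Rspo3, which is in both lists, was not among them. Its change was 0.40 (SE 0.39, adjusted p = 0.602), and its KO and WT arrays overlapped. The part of capsule and stroma in the rise of Lgr5 was not tested.

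Of 11 other measured channels and pumps that set voltage or calcium entry, 3 rose and 2 fell, with a median change of 0.07. Over all genes 5.14% rose and 3.55% fell. Cacna1d, an L-type calcium channel subunit, was at 8.14 ± 0.08 in KO (SD, n = 4) and 7.18 ± 0.16 in WT (SD, n = 3; log2 change 0.96, SE 0.08, adjusted p = 0.00179). Atp1b1, a sodium pump subunit, rose by 0.81 (SE 0.08, adjusted p = 0.00252). Clcn2, a chloride channel that depolarises glomerulosa cells, was at 8.22 ± 0.18 in KO (SD, n = 4) and 9.21 ± 0.08 in WT (SD, n = 3; log2 change -0.99, SE 0.10, adjusted p = 0.00257). These 3 were called whichever single array was left out. Kcnk5, the acid-sensitive potassium channel TASK2, fell by 0.90 (SE 0.15, adjusted p = 0.0140), with adjusted p values of 0.0545 without WT replicate 1 and 0.0657 without WT replicate 2.

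Kcnma1, the large-conductance calcium-activated potassium channel, rose by 0.30 (adjusted p = 0.0285) on the brighter of its probe sets and had a change of -0.02 on the other. It was not called without any one of 6 arrays, all but KO replicate 1 (adjusted p 0.0569 to 0.104). The calcium channel genes Cacna1c and Cacna1g had changes of -0.24 and 0.07, the calcium pump gene Atp2b3 one of -0.15 and the potassium channel gene Kcnk2 one of 0.33 (adjusted p = 0.328, 0.578, 0.443 and 0.184). Chromaffin cells are known to use L-type calcium channels and large-conductance potassium channels too. The mean of the chromaffin list differed by 0.93 between KO and WT, and its part in the rises of Cacna1d and Kcnma1 was not tested.

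Of 17 other measured genes of angiotensin II signalling, 2 rose and 3 fell, with a median change of 0.04. Over all genes 5.14% rose and 3.55% fell. Agtr2, the other angiotensin II receptor, which is abundant in the rat adrenal medulla, was at 7.74 ± 0.24 in KO (SD, n = 4) and 6.82 ± 0.37 in WT (SD, n = 3; log2 change 0.93, SE 0.19, adjusted p = 0.0295). Its call was lost without any one of 6 arrays, all but WT replicate 1 (adjusted p 0.0577 to 0.123). The phospholipase C gene Plcb4 rose by 0.49 (SE 0.07, adjusted p = 0.00681), while Plcb1 had a change of -0.23 (adjusted p = 0.0644, and 0.0321 without KO replicate 4).

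The falls were those of 3 kinases. Prkcd, protein kinase C delta, fell by 0.70 (adjusted p = 0.0241), Prkd1, protein kinase D1, by 0.27 (adjusted p = 0.0186) and Camk1, a calmodulin-dependent kinase that raises CYP11B2 transcription in human adrenocortical cells, by 0.28 (adjusted p = 0.0224). Prkcd was not called without KO replicate 4 or without any one of the WT arrays (adjusted p 0.0664 to 0.105). Prkd1 was not called without KO replicate 2, WT replicate 1 or WT replicate 2 (0.0550 to 0.0720), and Camk1 without KO replicate 2, 3 or 4 or WT replicate 3 (0.0551 to 0.0771). Camk4, Prkce and the inositol trisphosphate receptor Itpr2 had changes of 0.20, 0.27 and -0.16 (adjusted p = 0.0875, 0.129 and 0.125).

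Of 9 measured components of the renin-angiotensin system and other inputs to the zone, 2 rose and 0 fell by limma. Over all genes 5.14% rose and 3.55% fell. An unadjusted p under 0.05 was found for 3 of the 9, against 22.8% of all genes, and the median change was 0.14. Ace, angiotensin-converting enzyme, was at 7.65 ± 0.27 in KO (SD, n = 4) and 6.58 ± 0.16 in WT (SD, n = 3). It rose by 1.06 (SE 0.15, adjusted p = 0.00716), whichever single array was left out. Npr2, the receptor of C-type natriuretic peptide, rose by 0.31 (adjusted p = 0.0216). It was not called without KO replicate 2, WT replicate 1 or WT replicate 2 (adjusted p 0.0563 to 0.0674). The dopamine receptor gene Drd2, whose product inhibits aldosterone output, had a change of 0.73 (adjusted p = 0.0593, and 0.0377 without KO replicate 2). Angiotensinogen, Agt, had a change of 0.14 (adjusted p = 0.490). Ren1, renin, and Ednra, an endothelin receptor, had no probe set of their own, and the authors' deposited table gave changes of 1.07 for Ren1 (adjusted p = 0.00155) and 0.68 for Ednra (adjusted p = 0.00543).

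Of 10 measured transcription factors known to act on the Cyp11b2 promoter, 0 rose and 2 fell by limma. Over all genes 5.14% rose and 3.55% fell. An unadjusted p under 0.05 was found for 6 of the 10, against 22.8% of all genes, and the median change was 0.25. Nr0b1 (DAX1), which represses targets of steroidogenic factor 1, was at 7.69 ± 0.40 in KO (SD, n = 4) and 8.83 ± 0.12 in WT (SD, n = 3; log2 change -1.13, adjusted p = 0.0187). Nr2f1 (COUP-TFI) fell by 0.38 (adjusted p = 0.0295). Nr0b1 was not called without KO replicate 3 or any one of the WT arrays (adjusted p 0.0518 to 0.0866), nor Nr2f1 without any one of 6 arrays, all but WT replicate 2 (0.0551 to 0.119). The nuclear receptors Nr4a1 and Nr4a2, which respond at once to angiotensin II and activate human CYP11B2, had changes of 1.19 (SE 0.33, adjusted p = 0.0736) and 1.27 (SE 0.36, adjusted p = 0.0776).

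Nr4a1 was at 11.33, 10.95, 11.41 and 10.94 on the KO arrays and at 10.80, 9.74 and 9.36 on the WT arrays. The groups did not overlap, and WT replicate 1 lay near the KO arrays. Without WT replicate 1 the change was 1.61 (adjusted p = 0.0137), and that of Nr5a1, steroidogenic factor 1 itself, was 0.66 (adjusted p = 0.00661) in place of 0.44 (adjusted p = 0.170). Nr4a3 had a change of 0.42 (adjusted p = 0.134).

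Of 6 other measured enzymes and carriers from cholesterol to aldosterone, 0 rose and 0 fell by limma, against 8.69% of all genes called. An unadjusted p under 0.05 was found for 4 of the 6, against 22.8% of all genes. The changes of the 6 lay between -0.20 and 0.26, with a median of -0.08. The electron carrier Fdx1 was at 10.46 ± 0.10 in KO (SD, n = 4) and 10.20 ± 0.07 in WT (SD, n = 3; adjusted p = 0.0592), and the cholesterol carrier Star had a change of -0.16 (adjusted p = 0.105). Fdx1 was called higher among genes at or above the median level (adjusted p = 0.0351), with the arrays centred on their medians (0.0443) and after further quantile normalization (0.0417). Star was called lower with the arrays centred on the median of the named genes, with a change of -0.21 (adjusted p = 0.0446).

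**Figure D4:**
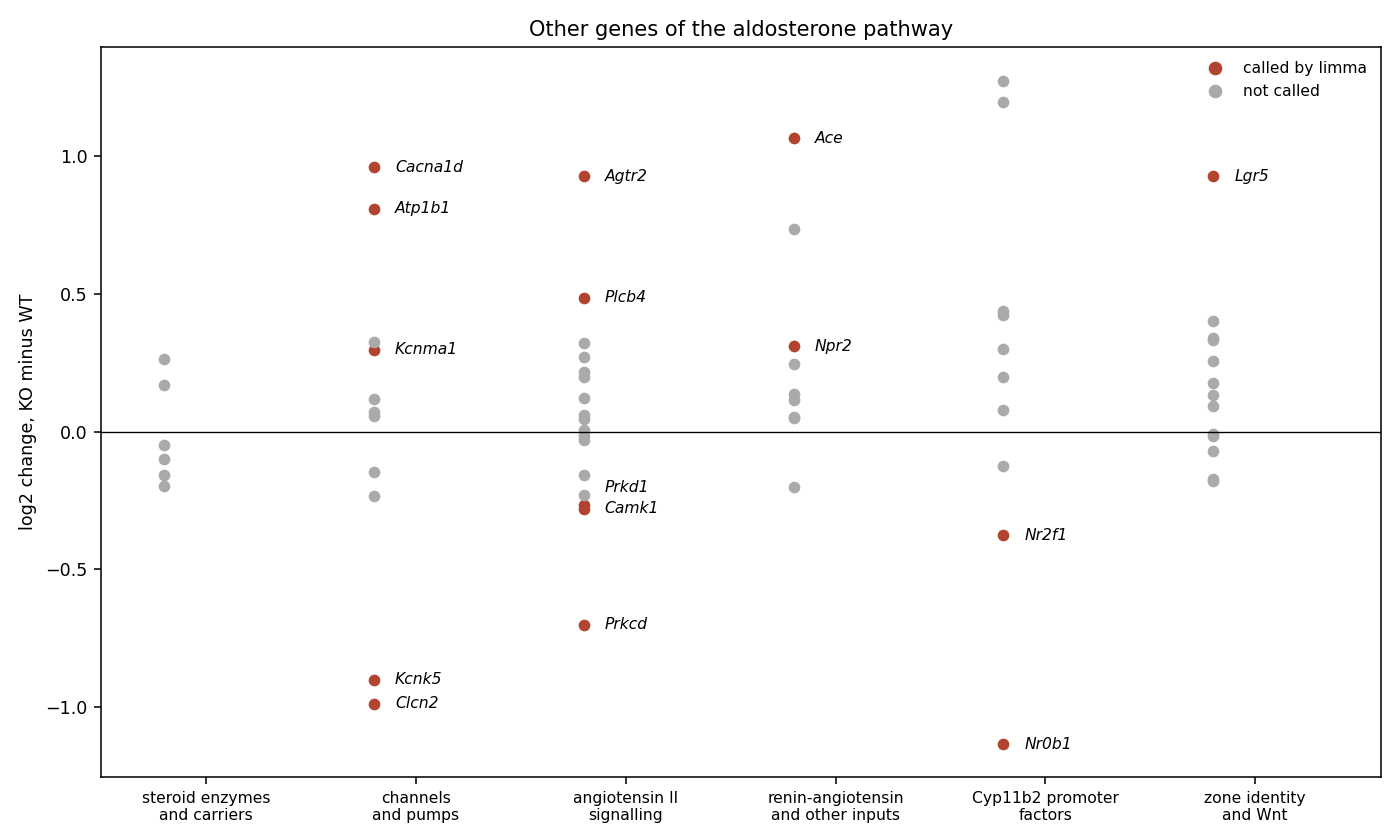
Log2 change, KO minus WT, of the other measured genes of 6 aldosterone pathway lists, 1 point per gene, with the called genes in red and named. Calls lie on both sides of 0 among channels and angiotensin II signalling, and no steroid enzyme or carrier was called.

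By Pearson's r over the 7 arrays, among 3349 named genes with an SD over the arrays of at least 0.2, the genes most like Cyp11b2 were Flna (r = 0.982), Sema3c (0.938), Lrp4 (0.927), Gucy1b1 (0.926) and Cd200 (0.920). Those most like Kcnk9 were Smok4a (0.989), Map9 (0.979), Srpx2 (0.977), Snap91 (0.976) and Tpm1 (0.976). An r above 0.9 was reached by 15 genes for Cyp11b2 and by 271 for Kcnk9. The arrays share their 2 groups, so a gene that differs between the groups as Kcnk9 does has a high r for that reason alone, and no test was made.

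All 4 markers of the X-zone, the inner zone of the young cortex, fell, with list means of 6.46 to 7.09 on the KO arrays and 9.17 to 9.51 on the WT arrays. Of 6 zona fasciculata markers 1 rose, the lipoprotein receptor Scarb1 (log2 change 0.34, adjusted p = 0.0390), and the list means overlapped, at 11.28 to 11.45 in KO and 11.23 to 11.30 in WT. Over all genes limma called 8.69%, and 22.8% had an unadjusted p under 0.05. Of 9 adipocyte markers 0 were called, with 1 at an unadjusted p under 0.05. Of 9 macrophage markers 1 fell, Lyz2, and 4 had an unadjusted p under 0.05. The macrophage list means did not overlap, at 7.25 to 7.71 in KO and 7.78 to 7.83 in WT. Of 8 endothelial markers 2 fell, Tek and Plvap, and the list means overlapped, at 8.14 to 8.46 in KO and 8.37 to 8.48 in WT. Kidney tubule markers, a check on neighbouring tissue, had list means of 4.78 to 4.86 in KO and 4.75 to 4.88 in WT.

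**Figure D5:**
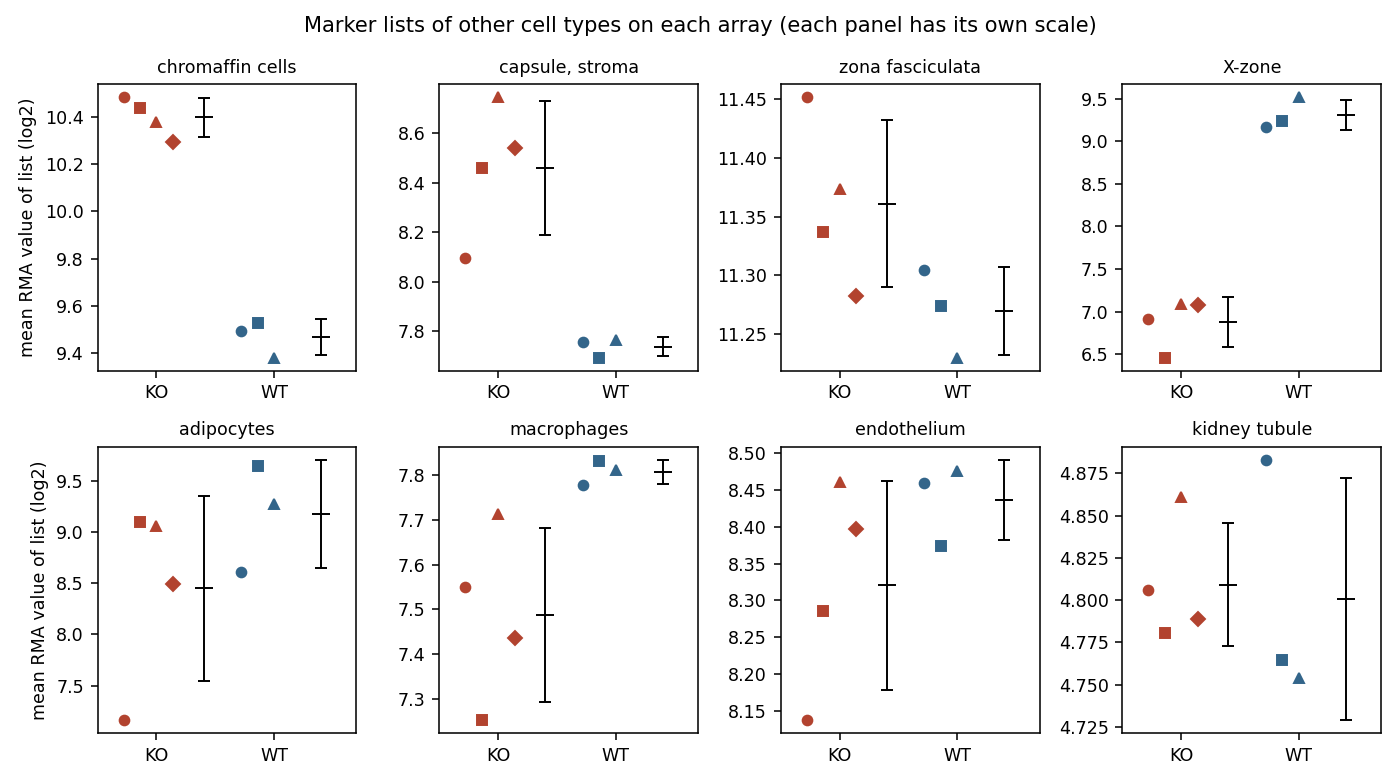
Mean RMA log2 value of each marker list on each array, with 4 KO arrays left of 3 WT arrays; circles, squares, triangles and diamonds mark replicates 1, 2, 3 and 4 and the bar beside each group is the mean and SD. Chromaffin and capsule lists lie higher in KO and the X-zone and macrophage lists lower, and the adipocyte list is lowest on KO replicate 1, at 7.16.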

How the data were processed

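Gene expression of whole adrenal glands was measured on 4 KO and 3 WT arrays, which GEO labels as biological replicates. The authors deposited log2 values of 41345 probe sets made with RMA, per the submitters' processing notes. A table of their own comparison, with log2 fold changes and p-values, was deposited too; the sources used here name neither its test nor the RMA version and genome build.

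The platform's annotation gives 1 symbol for 23521 probe sets, several for 1820 and none here for 16004. For the 1082 genes with several probe sets the one with the highest mean over the arrays was used, with no filter on low values. KO and WT were compared in R 4.3.3 by limma 3.58.1 (functions lmFit and eBayes), two-sided, over 22180 genes, and the fit was tested on simulated data. It leaves 5 residual degrees of freedom. Related genes were compared by an exact permutation test of the absolute difference of means. The markers and lists were chosen with earlier results of these data known. Named pathway genes are all called ones and some of the uncalled ones, taken from the 4 of smallest p in each list. Cyp11b1 was named as a relative of Cyp11b2 and Rspo3 from a marker list, and Ren1 and Ednra were added from the authors' deposited table. Up to 4 genes of a marker list are named. For Cyp11b2 and called markers, the 5 genes of highest r are named. In each list the 8 markers were left out of the counts. Same-numbered KO and WT arrays had correlations of their deviations of 0.07, -0.08 and -0.11, and the other KO and WT pairs -0.09 to 0.21. The sample titles do not say whether the numbers pair the arrays, and correlations of so few arrays cannot settle it.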

Additional observations from a re-analysis of the deposited data

Results flagged for a closer look

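For 58 genes the 4 KO arrays were searched for 1 array far from the other 3, which chance alone gives in about 1 of 20 groups, and 6 genes had one. None was among the 7 measured markers. KO replicate 3 was low for Atp1b1, at 9.93 against 10.18 on the nearest array, and high for Npr2, at 7.89 against 7.77, and for Agt, at 7.08 against 6.71. KO replicate 1 was high for Kcnk2, at 7.87 against 7.57. KO replicate 2 was high for Cacna1g, at 4.43 against 4.21, and KO replicate 4 for Srpx2, at 6.52 against 6.36. Cacna1g had the identical value of 4.21 on KO replicates 1 and 4, and Agt that of 6.70 on KO replicates 1 and 2. The chance of 1 of 20 assumes values without such ties, so it does not hold for Cacna1g and Agt.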

How the results depend on the processing

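Over 16 alternative settings, Kcnk9 was called in 15 (log2 change 0.51 to 0.70), the exception being the fit with the replicate block. With the replicate number as a block, which leaves KO replicate 4 without a partner and fewer residual degrees of freedom, 0 markers were called higher. The change of Kcnk9 was then 0.64, with an adjusted p of 0.0838. In that fit 523 genes were higher and 286 lower, against 1140 and 788 without the block. Whether the numbers pair the arrays is not known. The count of lower markers was 0 in all 16 settings. The median change of the markers was 0.04 to 0.20. Over the named genes, 841 alternative values kept direction and call, 59 lost the call, 23 gained one and 1 reversed, that of Ezh2 (log2 change of Ezh2 -0.074 to 0.023 with 1 array left out, positive without KO replicate 1). With only genes at or above the median level tested, Fdx1, Drd2, Nr4a1, Nr4a2 and Gucy1b1 were called higher and Plcb1 lower (adjusted p 0.0331 to 0.0435). Centring on the median of the named genes, added after the data were seen, gave 1005 higher and 1329 lower genes. Without WT replicate 2 the genes called higher in KO numbered 633 and the genes called lower in KO 394, and without WT replicate 3 they numbered 594 and 322; the lower ones numbered 477 without KO replicate 2 and 515 without KO replicate 3. With 1 array left out, the permutation tests of related genes cannot reach 0.05; their differences kept their sign.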
